A study of Caenorhabditis elegans with 8 samples.

Results

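The nuclear genes for the respiratory chain and the ATP synthase were followed in early embryos of Caenorhabditis elegans with and without RNAi of sig-7, by chromatin immunoprecipitation and sequencing (ChIP-seq) of RNA polymerase II. The set was chosen by sequence name and holds 40 protein-coding genes, out of 19983 protein-coding genes in the gene table. By this choice they are genes for subunits of complexes I to IV, cytochrome c and the ATP synthase. The antibody recognises AMA-1, which is the largest polymerase subunit. The embryos that received sig-7 RNAi and the control embryos, which received the empty RNAi vector L4440, were both of strain KW2309. Both were mixed stages of 1 to 350 cells and were fixed with 2% formaldehyde for 22 min. A growth time of 72 h is given for all libraries. The product of sig-7 is a cyclophilin of the nucleus that also carries an RNA recognition motif. Each condition had 2 ChIP libraries, besides 4 input libraries in all, and the labels do not say whether the libraries came from separate cultures or how the RNAi was given.

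Complexes I and II pass electrons from NADH and succinate to ubiquinone, complex III passes them on to cytochrome c, and complex IV passes them to oxygen. Complexes I, III and IV pump protons across the inner mitochondrial membrane, and the ATP synthase uses the returning protons to make ATP. Most subunits are encoded in the nucleus and transcribed by RNA polymerase II, while a few are encoded in mitochondrial DNA and transcribed by another polymerase. In the worm, mutants of several of these genes are known for altered lifespan and altered sensitivity to oxidative stress.

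The deposited value for a gene is a call in each condition. A call of 1 means that a polymerase peak overlapped the gene in both libraries of that condition, and a call of 0 that it did so in at most 1 of them. A gene absent from the table has no call in either condition. The table gives no peak height, no read count and no value for a single library, so a call measures neither the amount of polymerase nor the transcript, and no replicate error stands behind it. Depth is unknown. No difference between conditions can be tested with 1 merged call on each side, and every count below is a description. The embryos were whole and of mixed stages, so a polymerase peak in a few cells and a weak peak in all cells cannot be told apart. Calls at markers of the early embryo were incomplete. Of 15 early zygotic genes, 6 (40%) were called in sig-7(RNAi), against 23.9% of all protein-coding genes, and 4 (26.7%) in control, against 22.8%. The control share was near that background. Called in both conditions were nhr-2, pal-1 and vet-2, in sig-7(RNAi) only ceh-51, med-2 and vet-6, and in control only ceh-27. The other 8, among them the endoderm genes end-1 and end-3, were called in neither condition. Of 6 vitellogenin genes, which are active in the adult intestine, 1 was called in sig-7(RNAi) and 0 in control. None of the 12 sperm protein genes examined (msp, near-identical copies) was called in either condition. sig-7 itself (F39H2.2) had a call of 1 in sig-7(RNAi) and 0 in control, which says nothing about its transcript, and ama-1 (F36A4.7) had a call of 1 in both.

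Of the 40 genes, 27 were called in sig-7(RNAi) embryos and 20 in control embryos. This was 67.5% of the set in sig-7(RNAi), where 23.9% of all protein-coding genes were called, and 50% in control, where 22.8% were. Each of the 20 genes with a control call had a call in sig-7(RNAi) as well. Over all protein-coding genes, 3360 of the 4564 with a control call also had a call in sig-7(RNAi). A call in sig-7(RNAi) only was found at 7 genes, or 17.5% of the set, against 7.05% of all protein-coding genes. A call in control only was found at 0 genes of the set, against 6.03% of all protein-coding genes. The remaining 13 genes, or 32.5%, were called in neither condition, against 70.1% of all protein-coding genes. Called in both conditions were 50% of the set and 16.8% of all protein-coding genes. Over all 46926 genes of the gene table, of any kind, 13.9% had a call in sig-7(RNAi) and 14.4% in control, with 9.52% in both conditions, 4.4% in sig-7(RNAi) only, 4.88% in control only and 81.2% in neither. The 7 genes were the complex I genes lpd-5 and nduf-7, the complex II gene mev-1, the complex III gene ucr-1, the ATP synthase genes atp-3 and atp-5, and R53.4.

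**Figure D1:**
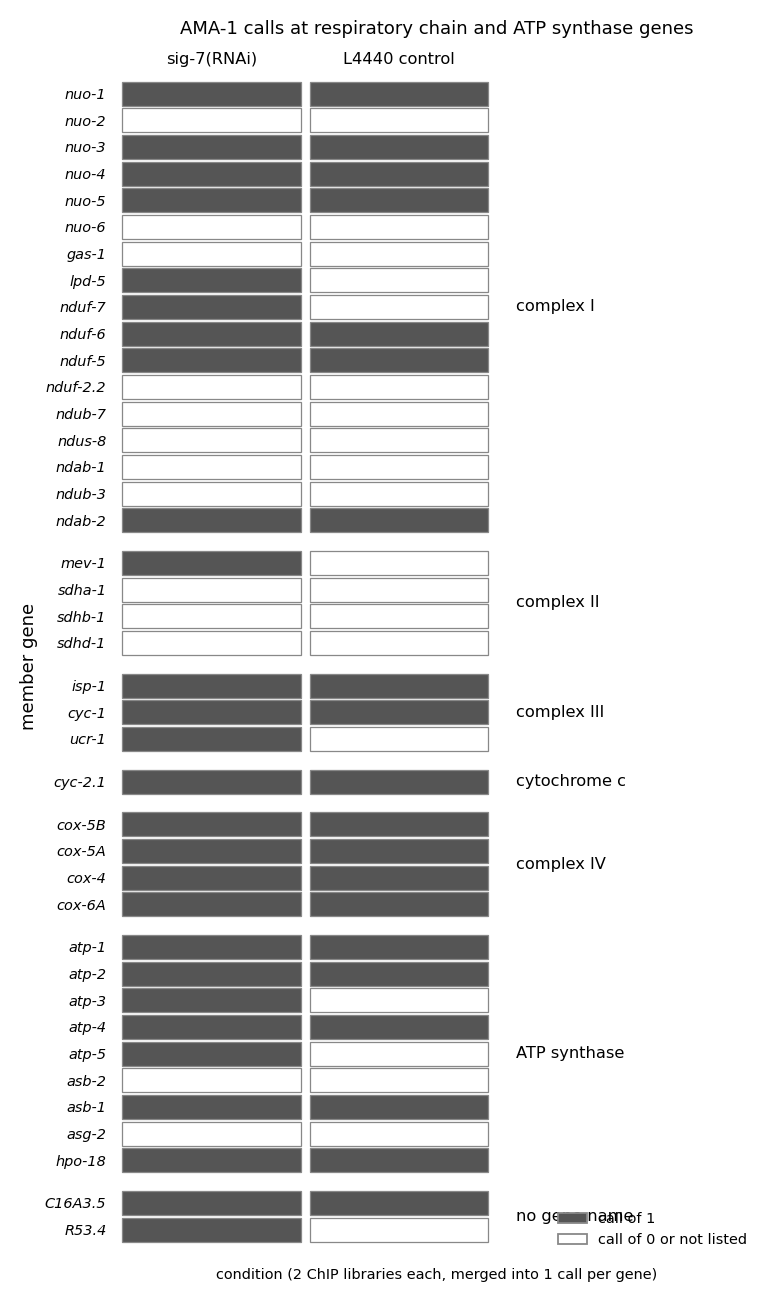
Each row is a gene of the set, grouped by complex, and the columns are the merged call in sig-7(RNAi) (left) and in L4440 control embryos (right), dark for a call of 1 and white for a call of 0 or a gene that is not listed. The left column holds 27 dark boxes and the right column 20, and no gene is dark on the right alone.

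Complex I held called and uncalled genes side by side. Of its 17 named genes, 9 (52.9%) were called in sig-7(RNAi), 7 (41.2%) in control and 8 (47.1%) in neither condition. Over all protein-coding genes these shares were 23.9%, 22.8% and 70.1%. The 7 genes with a call of 1 in both conditions include nuo-1 (C09H10.3) and nuo-5 (Y45G12B.1) of the NADH-oxidising arm. nuo-1 encodes the flavoprotein that binds NADH, and nuo-5 the large iron-sulfur protein next to it. The others were nuo-3 (Y57G11C.12), nuo-4 (K04G7.4), nduf-5 (Y54E10BL.5) and nduf-6 (F22D6.4), the counterparts of the human subunits NDUFA6, NDUFA10, NDUFS5 and NDUFS6, and ndab-2 (F37C12.3), which encodes an acyl carrier protein.

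Called in sig-7(RNAi) only within complex I were lpd-5 (ZK973.10) and nduf-7 (W10D5.2). Each had a call of 1 in sig-7(RNAi) and a call of 0 in control. They make up 11.8% of the complex I genes, not far from the 7.05% of all protein-coding genes with this pattern. lpd-5 encodes the counterpart of human NDUFS4, an accessory subunit needed for a stable complex. nduf-7 encodes the counterpart of human NDUFS7, a core subunit that carries the last iron-sulfur cluster before ubiquinone. The genes called in sig-7(RNAi) only thus held a core and an accessory subunit, as did those called in both conditions.

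The 8 complex I genes without a call in either condition included core subunits. nuo-2 (T10E9.7) encodes the counterpart of human NDUFS3. gas-1 (K09A9.5), known from worms with altered sensitivity to volatile anaesthetics, and nduf-2.2 (T26A5.3) were not listed either. ndus-8 (T20H4.5) encodes a core iron-sulfur subunit. nuo-6 (W01A8.4), ndub-3 (C18E9.4) and ndub-7 (D2030.4) encode accessory subunits of the membrane arm, and nuo-6 mutants are known for long life. ndab-1 (Y56A3A.19), the second acyl carrier gene, was likewise not listed, while ndab-2 had a call of 1 in both conditions.

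Complex II, succinate dehydrogenase, was called at 1 of 4 genes in sig-7(RNAi) and at 0 of 4 in control. Over all protein-coding genes 23.9% had a sig-7(RNAi) call and 70.1% had none in either condition, so its 1 call in sig-7(RNAi) and its 3 genes without a call were near the background. That gene was mev-1 (T07C4.7), which encodes a membrane anchor subunit and whose mutants are known for sensitivity to oxidative stress, with a call of 1 in sig-7(RNAi) and of 0 in control. sdha-1 (C03G5.1) and sdhb-1 (F42A8.2), for the flavoprotein and the iron-sulfur protein, and sdhd-1 (F33A8.5), for the other membrane anchor, were called in neither condition.

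Complex III had 3 of 3 genes called in sig-7(RNAi) and 2 of 3 in control, against 23.9% and 22.8% of all protein-coding genes. isp-1 (F42G8.12), for the Rieske iron-sulfur protein, and cyc-1 (C54G4.8), for cytochrome c1, had a call of 1 in both conditions. These are the subunits that carry electrons from ubiquinol to cytochrome c. ucr-1 (F56D2.1), for a core protein that is not an electron carrier, had a call of 1 in sig-7(RNAi) and of 0 in control. cyc-2.1 (E04A4.7), which encodes cytochrome c, had a call of 1 in both conditions.

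Complex IV, cytochrome c oxidase, was called throughout. All 4 of its genes, against 16.8% of all protein-coding genes, had a call of 1 in sig-7(RNAi) and in control. These were cox-4 (W09C5.8), cox-5A (Y37D8A.14), cox-5B (F26E4.9) and cox-6A (F54D8.2), all for nuclear-encoded subunits around the catalytic core, which is itself encoded in mitochondrial DNA. cox-5B, also known as cco-1, is widely used in the worm as an RNAi target that induces the mitochondrial stress response. The set holds 4 genes of this complex only, and 2 further ones, described below, were each called in a single condition.

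Of the 9 named ATP synthase genes, 7 (77.8%) were called in sig-7(RNAi) and 5 (55.6%) in control, against 23.9% and 22.8% of all protein-coding genes. atp-1 (H28O16.1) and atp-2 (C34E10.6), for the alpha and beta subunits that form the catalytic ring, had a call of 1 in both conditions. So did hpo-18 (F32D1.2), for the epsilon subunit of the central stalk, and atp-4 (T05H4.12) and asb-1 (F35G12.10), for parts of the peripheral stalk. atp-3 (F27C1.7) and atp-5 (C06H2.1) had a call of 1 in sig-7(RNAi) and of 0 in control. They too encode parts of the peripheral stalk, the oligomycin sensitivity-conferring protein and subunit d. asb-2 (F02E8.1), the second gene for subunit b, and asg-2 (C53B7.4), for subunit g of the membrane part, were called in neither condition. The peripheral stalk thus held each of the 3 states, and the catalytic ring only the shared call.

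C16A3.5 and R53.4 have no gene name in the gene table, and no subunit is assigned to them here. C16A3.5 had a call of 1 in both conditions. R53.4 had a call of 1 in sig-7(RNAi) and of 0 in control.

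Some of these proteins are encoded by more than 1 gene, and the calls of such copies differed in the cases given here, which were chosen after the calls were seen. asb-1, on chromosome III and known for its role in the germline, had a call of 1 in both conditions, while asb-2, on chromosome X, had none. For succinate dehydrogenase, sdha-2 (C34B2.7) on chromosome I had a call of 1 in both conditions and sdha-1 on X had none. For cytochrome c, cyc-2.1 on chromosome IV was called in both conditions and cyc-2.2 (ZC116.2) on V in neither. The core protein genes ucr-2.2 (T10B10.2) on X and ucr-2.3 (T24C4.1) on III were called in both conditions and ucr-2.1 (VW06B3R.1) on X in neither. Of the inhibitor genes of the ATP synthase, mai-1 (K10B3.9) on X was called in both conditions and mai-2 (B0546.1) on IV in sig-7(RNAi) only. Copies on X were thus found both with and without a call. Reads of near-identical stretches can be lost or split between copies, and the handling of such reads is not described in the labels or the file header.

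The calls of neighbouring genes were read as well, because a broad peak can cover several genes. Gene order was taken from the RefSeq gene table for assembly WBcel235, which is not the build of the calls (ce10), and neighbours are adjacent protein-coding genes unless stated. At least 1 neighbour was called in sig-7(RNAi) for 29 of the 40 genes (72.5%), against 36.8% of all protein-coding genes. In control this was so for 31 of the 40 genes (77.5%), against 36.9% of all protein-coding genes. With genes of any kind as neighbours the numbers were 31 in sig-7(RNAi), against 32.6% of all protein-coding genes, and 26 in control, against 32%. Which condition had more of the 40 genes beside a called gene thus turned with the definition of a neighbour.

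Of the 7 genes called in sig-7(RNAi) only, 6 had at least 1 neighbour called in both conditions, and 3 had such a neighbour on both sides. Over the whole gene table, 1409 protein-coding genes had this pattern, of which 43.2% had a neighbour called in both conditions. lpd-5 lay between ZK973.9 and cec-10, nduf-7 between gei-17 and gld-4, and ucr-1 between ddx-15, an RNA helicase gene, and ced-6, an engulfment gene. These 6 neighbours had a call of 1 in both conditions. mev-1 lay beside ced-9, the anti-apoptotic gene with which it shares an operon, and ced-9 had a call of 1 in both conditions. On the other side of mev-1, jmjd-4 had no call. atp-5 lay beside mboa-2, called in both conditions, and lmtr-3, called in neither.

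The remaining genes of the 7 were R53.4 and atp-3. R53.4 lay between dtmk-1, called in both conditions, and psf-1, called in sig-7(RNAi) only. With psf-1, a gene of the GINS replication complex, and R53.5 it formed a stretch of 3 adjacent genes called in sig-7(RNAi) only. atp-3 lay between F27C1.3 and F27C1.2, which were called in neither condition, while the adjacent ncRNA gene F27C1.17 was called in sig-7(RNAi) only. atp-3 was the only gene of the 7 whose call stood apart from any called protein-coding neighbour. No such neighbour was found for 18.6% of the 1409 genes that share the pattern of the 7, so 1 of 7 was near that background. R53.4 was also the only gene of the 7 with a neighbour of the same pattern, which 48.9% of the 1409 protein-coding genes with this pattern had.

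Of the 20 genes called in both conditions, 18 had a neighbour also called in both (all protein-coding genes with this pattern: 82.0%), and 8 had such a neighbour on both sides. Their stretches of adjacent genes called in both conditions held 1 to 11 genes, with a median of 3.0. The longest was that of C16A3.5, which also held the ribosomal protein gene rps-13. nuo-1, cyc-2.1 and ndab-2 each lay directly beside a ribosomal protein gene called in both conditions, namely rpl-36A, rpl-18A and rpl-36. nuo-3 lay beside coq-3, a gene for the synthesis of ubiquinone, with a call of 1 in both conditions. atp-1 was the only gene of the 20 with no called protein-coding neighbour, against 8.01% of all protein-coding genes called in both conditions. Its neighbours mcrs-1 and T26E3.7 had no call, while the adjacent piRNA gene H28O16.3 was called in both conditions. cox-5A and asb-1 each had a neighbour called in control only, flp-14 and sel-2. nduf-6 and cox-5B each had a neighbour called in sig-7(RNAi) only, nars-1 and hrdl-1.

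Of the 13 genes called in neither condition, 7 also had no called neighbour, against 72.0% of all protein-coding genes without a call. These were nuo-2, nuo-6, sdha-1, sdhb-1, sdhd-1, asb-2 and asg-2. The other 6 lay beside a called gene. gas-1 adjoined K09A9.6, called in control only. nduf-2.2 adjoined the dynein light chain gene dlc-1, ndus-8 the RNA-editing gene adr-2, ndub-7 D2030.3 and ndub-3 sec-62, all called in both conditions. ndab-1 lay between Y56A3A.16, called in sig-7(RNAi) only, and the nucleoporin gene npp-16, called in both.

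**Figure D2:**
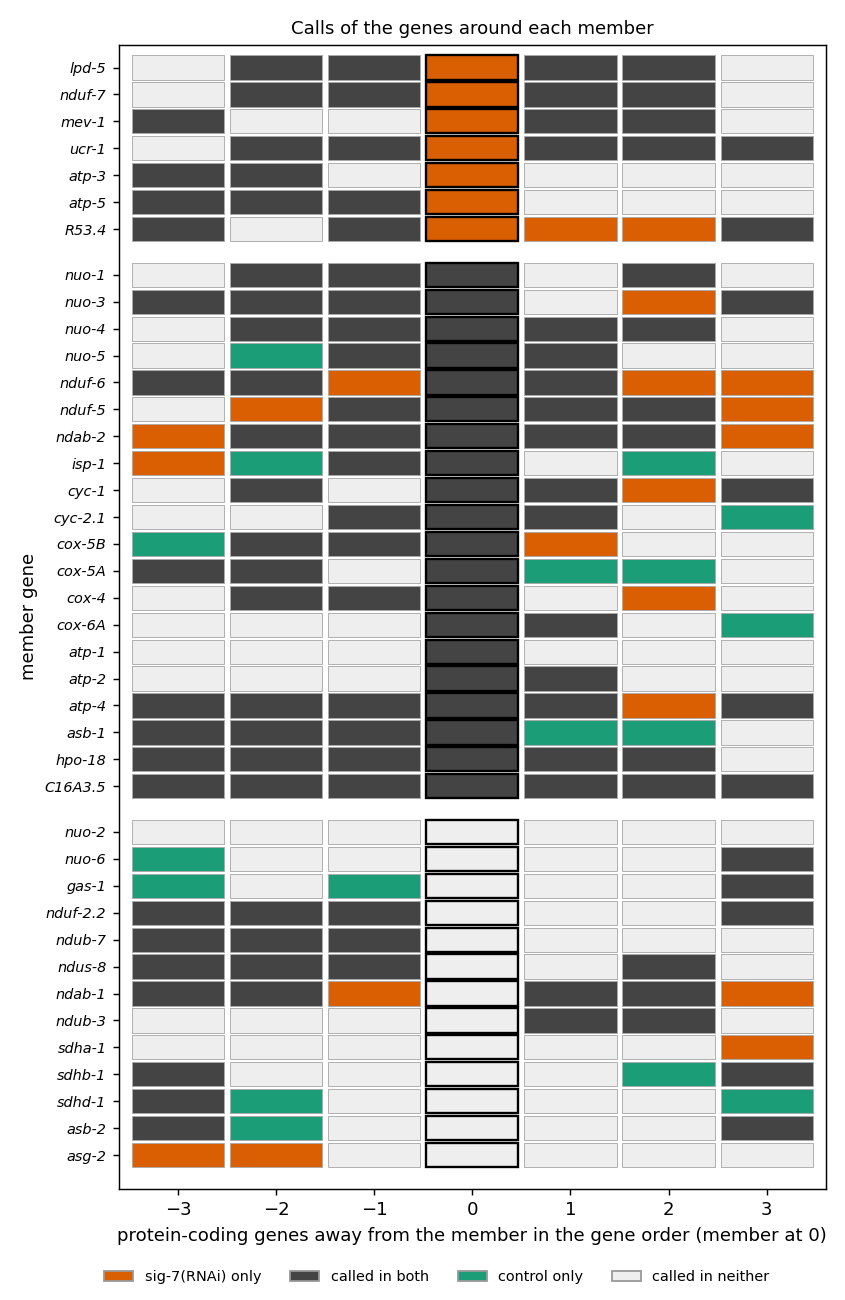
Rows are the 40 genes, ordered by their own pattern (boxed, at 0), and columns are the 3 protein-coding genes on each side in the gene order, coloured by the pattern of their calls in the 2 conditions. In the upper block 6 of 7 genes called in sig-7(RNAi) only lie directly beside a gene called in both conditions, and atp-3 lies between protein-coding genes with no call.

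The set was spread over the 6 chromosomes, with 12 genes each on I and III, 5 on II, 3 on IV, 4 on V and 4 on X. On the X chromosome 0 of 4 genes were called in either condition, namely gas-1, sdha-1, asb-2 and asg-2. Of all protein-coding genes on X, 12.9% were called in sig-7(RNAi) and 15.1% in control, and 79.8% had no call in either condition, so a gene without a call was the usual case on X. On the autosomes, sig-7(RNAi) calls were found at 27 of 36 genes (75.0%) and control calls at 20 of 36 (55.6%), against 25.6% and 24.1% of all autosomal protein-coding genes. The genes called in sig-7(RNAi) only lay on 4 chromosomes, with 3 on I, 2 on III, 1 on II and 1 on V. On chromosome II, calls in sig-7(RNAi) were found at 2 of 5 genes and calls in control at 1 of 5. Of all protein-coding genes on this chromosome 26% were called in sig-7(RNAi) and 22.9% in control, so the control share of the set was near that of the chromosome.

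**Figure D3:**
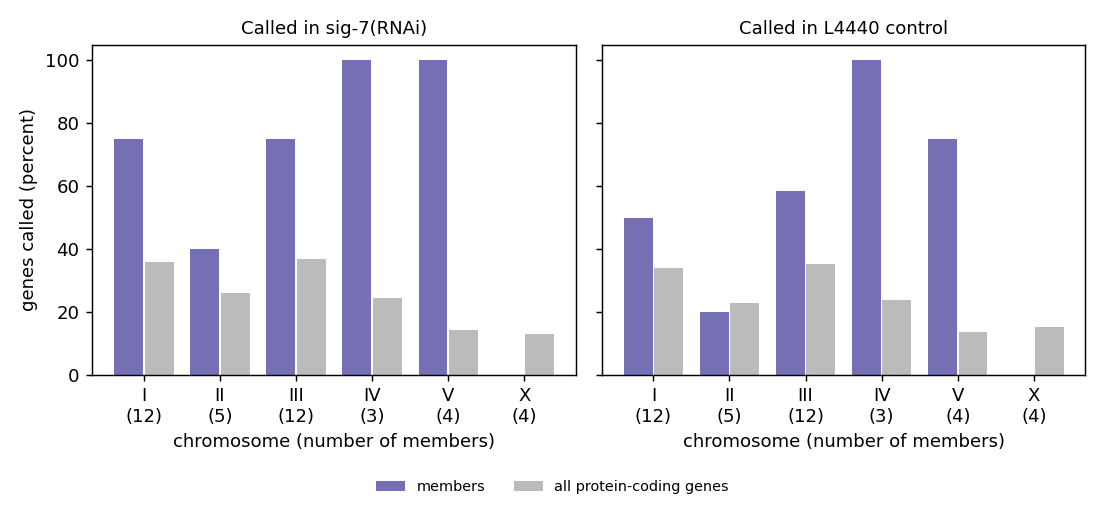
Bars give the percent of genes called on each chromosome in sig-7(RNAi) (left panel) and L4440 control embryos (right panel), purple for the 40 genes of the set and grey for all protein-coding genes, with the number of genes of the set under each chromosome. The purple bars are at 0 on X in both panels, and on I, II, III and V they are taller in the left panel than in the right.

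Further genes of the respiratory chain and ATP synthase were read from a list of 24 named genes outside the set. Of these, 17 (70.8%) were called in sig-7(RNAi) and 11 (45.8%) in control, against 23.9% and 22.8% of all protein-coding genes. Called in both conditions were 9 (37.5%) and in neither 5 (20.8%), against 16.8% and 70.1%. A call in sig-7(RNAi) only was found at 8 genes (33.3%), against 7.05% of all protein-coding genes. A call in control only was found at 2 (8.33%), near the 6.03% of all protein-coding genes. The 8 genes were the complex I genes nduv-2 (F53F4.10), ndua-1 (F31D4.9), ndua-2 (Y63D3A.7), ndua-8 (Y54F10AM.5), ndua-13 (C34B2.8) and ndub-11 (F42G8.10), the complex IV gene cox-7C (F26E4.6), and the inhibitor gene mai-2. nduv-2 encodes an iron-sulfur subunit of the NADH-oxidising arm, to which nuo-1 and nuo-5 with their shared call also belong. It had a call of 1 in sig-7(RNAi) and of 0 in control. Other subunits of that arm were not singled out here. The 2 genes called in control only were ndua-12 (Y94H6A.8) of complex I and cox-6C (F29C4.2) of complex IV. Calls in control only were thus found at genes of these complexes outside the set, at a share near that of all protein-coding genes.

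In the gene order, sdha-2 was directly adjacent to ndua-13, and cox-6B (Y71H2AM.5) to nduc-2 (Y71H2AM.4). sdha-2 had a call of 1 in both conditions and ndua-13 in sig-7(RNAi) only, whereas cox-6B and nduc-2 were both called in both conditions. mai-1, the second inhibitor gene, which shares an operon with the glycolytic genes gpd-2 and gpd-3, had a call of 1 in both conditions, as did gpd-2 and gpd-3. With the 24 genes added, calls in sig-7(RNAi) were found at 44 of 64 genes and calls in control at 31 of 64. Of the 64, 15 (23.4%) were called in sig-7(RNAi) only and 2 (3.12%) in control only. Over all protein-coding genes these 2 shares were 7.05% and 6.03%.

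Other genes of energy metabolism and of the mitochondrion give the frame for these shares. Over all protein-coding genes, 23.9% were called in sig-7(RNAi) and 22.8% in control. Of 14 assembly factors of the respiratory chain, 8 (57.1%) were called in sig-7(RNAi) and 8 (57.1%) in control. Among them nuaf-1 was called in sig-7(RNAi) only and cox-18 in control only. Of 16 citric acid cycle genes, which feed electrons to the chain, 11 (68.8%) were called in sig-7(RNAi) and 9 (56.2%) in control. dld-1, mdh-2 and ogdh-1 were called in sig-7(RNAi) only and idhg-1 in control only. Of 71 mitochondrial ribosomal protein genes, 38 (53.5%) were called in sig-7(RNAi) and 32 (45.1%) in control. Among them 11 were called in sig-7(RNAi) only, for example mrpl-1, mrpl-11 and mrpl-17, and 5 in control only, for example mrpl-24, mrpl-34 and mrpl-44.

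Outside the mitochondrion, 9 of 19 glycolysis genes (47.4%) were called in sig-7(RNAi) and 8 (42.1%) in control. gpd-1 and gpd-4, which are near-identical copies and therefore uncertain, were called in sig-7(RNAi) only, and pgk-1 in control only. The vacuolar ATPase is a proton pump related to the ATP synthase. Of its 20 genes, 11 (55.0%) had a call in sig-7(RNAi) and 11 (55.0%) in control. vha-12, vha-16 and vha-17 were called in sig-7(RNAi) only, and vha-5, vha-11 and vha-15 in control only. Each of these 5 lists had larger called shares than all protein-coding genes, at 23.9% in sig-7(RNAi) and 22.8% in control. Each list also held at least 1 gene called in control only, while the 40 genes held none. The control-only share was 7.14% for assembly factors, 6.25% for the citric acid cycle, 7.04% for mitochondrial ribosomal proteins and 5.26% for glycolysis. These shares were near the 6.03% of all protein-coding genes. For the vacuolar ATPase the share was 15.0%. The sig-7(RNAi)-only share was 18.8% for the citric acid cycle, 15.5% for mitochondrial ribosomal proteins and 15.0% for the vacuolar ATPase. These shares were near the 17.5% of the 40 genes. For glycolysis the sig-7(RNAi)-only share was 10.5% and for assembly factors 7.14%, against 7.05% of all protein-coding genes. Whether the set differs from these lists was not tested.

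**Figure D4:**
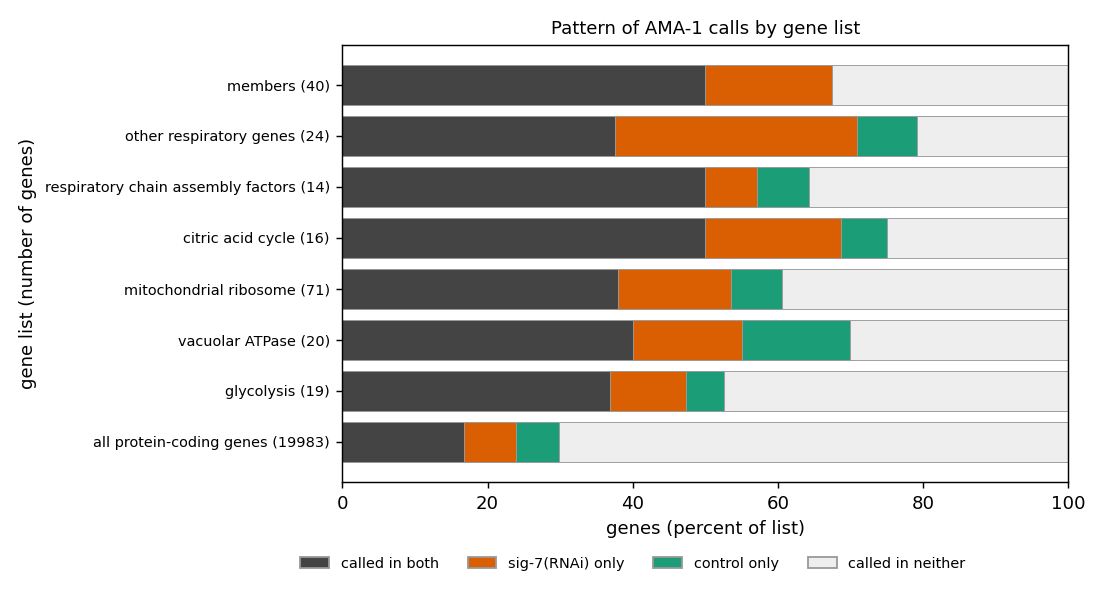
Stacked bars give the percent of each gene list called in both conditions (dark grey), in sig-7(RNAi) only (orange), in control only (green) and in neither (light grey), with the number of genes in brackets. The 40 genes at the top have no green part, and their orange part of 17.5% compares with 7.05% in all protein-coding genes at the bottom. The orange parts of the citric acid cycle (18.8%), the mitochondrial ribosome (15.5%) and the vacuolar ATPase (15.0%) are of similar size.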

How the data were processed

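AMA-1 ChIP-seq calls were read from 1 deposited table with a column for sig-7(RNAi) and a column for L4440 control, each merged by the authors over 2 ChIP libraries. The values are not a count or a signal but a 0 or 1 category per gene. MACS2 was the peak caller, run with its broad option and a cutoff of 0.01, per the file headers, and a gene was assigned where a peak overlapped at least 250 bp or 45% of it. Per the submitters' processing notes, Bowtie 1.0.1 and build ce10 were used. How the inputs entered, the gene annotation and the depth are not stated there.

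Ignoring letter case, sequence names were looked up in the RefSeq gene table of WBcel235, which gave symbols, chromosomes and positions. The positions served only to put the genes in order. All 40 genes of the set matched, and 27 were listed in the table of 8922 genes. Genes not listed were taken as called in neither condition. Of the listed genes 98 did not match and were left out. The 12 protein-coding genes of the mitochondrial genome carry other identifiers in the gene table and could not be matched to the calls. They were not described, and the shares over all protein-coding genes count them as not called.

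The set and the lists were chosen with earlier results of these data known. No test was run. Named are all 40 genes, the further respiratory genes called in a single condition, neighbours of genes of the set, and up to 3 genes of each other list called in a single condition, taken in each direction in alphabetical order. Paralogues, neighbours of the other genes and shared operons were named after their calls were seen. Of 35 further identifiers, 11 were dropped, since the gene table gives them no name of a subunit. The counting was tested on simulated calls, with Python 3.11.15 and pandas 2.3.3. Sequences were not used here.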

Additional observations from a re-analysis of the deposited data

How the results depend on the processing

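No paired analysis was possible because each condition has a single merged call per gene. For the same reason, leaving out a replicate, other peak thresholds and other overlap rules were not run. Members were chosen in 13 other ways, 2 of them after seeing the data. These were adding the 24 further genes, leaving out paralogues or each complex, keeping letter case, autosomal genes alone, and 2 restrictions on neighbours. Since the set holds 0 genes called in control only, every choice among its own genes must also give 0. Adding the 24 further genes was the only setting not bound in this way, and it gave 15 called in sig-7(RNAi) only and 2 in control only.

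Shares moved most under the restrictions on neighbours, which leave few genes and select on the pattern of the gene itself. Of the 13 genes called in neither condition, 12 have a protein-coding neighbour of the same pattern and drop out. So do 18 of the 20 genes called in both conditions, but only 1 of the 7 called in sig-7(RNAi) only. The genes left are thus mostly those called in sig-7(RNAi) only, so the share called in that condition rises and the control share falls. The 95% exact binomial interval of a share, used here to mark such moves, treats genes as independent although neighbours share calls. With the 8 genes for which neither neighbour of any kind had the same pattern, 87.5% had a sig-7(RNAi) call. A call in that condition alone was held by 50%, and the surplus of sig-7(RNAi)-only over control-only genes was also 50%. With the 9 genes for which neither protein-coding neighbour did, which was chosen after seeing the data, 88.9% were called in sig-7(RNAi), 22.2% in control and 22.2% in both conditions. Here 66.7% had a call in sig-7(RNAi) only, and the surplus over control-only genes was also 66.7%.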
